A study of Homo sapiens with 12 samples.

Results

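The insulin-like growth factor (IGF) genes described here are the IGF-binding protein genes IGFBP1 to IGFBP7, the receptor genes IGF1R and IGF2R and the ligand gene IGF2. These 10 genes were chosen by name, with earlier results of the same libraries known, and IGFBP5 was selected on its high values in Rego-resistant SNU449 cells. Of the 10 genes, 9 were among the 15601 genes of the table of all 12 libraries, and IGF2 was in no table. SNU449 is a human hepatocellular carcinoma (HCC) cell line, and its RNA was measured by QuantSeq, which reads the 3' ends of mRNAs. The 4 groups of 3 libraries were Axl-proficient parental SNU449 cells without the drug (SNU449 ctrl), SNU449 cells made resistant to the kinase inhibitor regorafenib (SNU449 Rego), SNU449 cells in which Axl had been knocked out by CRISPR/Cas9 (SNU449-Axl- ctrl), and knockout cells made resistant in the same way (SNU449-Axl- Rego). Resistant cells were started at 50% of the IC50 of regorafenib, were raised stepwise to 2 times the IC50 and were kept under the drug. Control cells were without it, so changes with resistance cannot be told apart from effects of drug exposure. Each group was 1 cell population measured in technical replicates, so all p-values measure the spread between libraries, and an effect of the treatment or knockout cannot be told apart from a difference between single populations.

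IGFs act through the IGF1 receptor, a tyrosine kinase that drives growth and survival, whereas the IGF2 receptor takes up IGF2 for degradation without kinase signaling. IGF-binding proteins are secreted, bind IGFs and control how much ligand reaches the receptors, and proteases release the ligand by cutting them. The liver is a main source of circulating IGFs and of several of their binding proteins.

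Values are the deposited library values, a normalized and variance-stabilized score that is not a read count. Read depth of the libraries is therefore unknown. In the table of all 12 libraries the score is never below 12 for any gene, so that folds of weak genes are compressed. The lowest values of the pairwise tables were 18 and 51 (Rego against ctrl in SNU449 and in SNU449-Axl-), 24 (control cells) and 40 (Rego-resistant cells). Their folds of weak genes are thus on another scale, and a changed value or call there is not a repeat on the same scale. Levels are given as log2(value + 1), and they are compared between groups for 1 gene. Sums of marker values are given as scores, and the gene with most weight in a sum is named only to read that sum. Tests are limma fits over all 15601 genes with the replicate number as a block, and a gene was called at an adjusted p under 0.05.

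AXL, the gene that was knocked out, was read first. In SNU449 ctrl the AXL values were 727, 941 and 715, in SNU449 Rego 1237, 815 and 1271, in SNU449-Axl- ctrl 35, 53 and 33, and in SNU449-Axl- Rego 50, 38 and 52. All 6 knockout libraries were below all 6 Axl-proficient libraries, by a log2 fold change of -4.29 (SE 0.24, adjusted p = 2.16e-09) in control cells and of -4.52 (SE 0.24, adjusted p = 1.27e-09) in Rego-resistant cells. Where the edit lies relative to the 3' end that was read was not analysed here.

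Promoter sequences are shown for IGFBP5, IGFBP3, IGF1R and IGFBP4, IGFBP5 because of its values in SNU449 Rego, IGFBP3 and IGF1R because they passed the threshold between the Rego-resistant groups, and IGFBP4 as a binding protein with no called change. RefSeq promoters (GRCh38.p14) were held for 7 of the 10 genes, with none for IGFBP1, IGFBP7 and IGF2. Each sequence ends at the base before the RefSeq start site. For IGFBP5, IGF1R and IGFBP4 this is the start of the gene in the deposited tables, whereas for IGFBP3 it lies 602 bases inside the gene given there, and the distances in IGFBP3 hold for the RefSeq start. Capitals mark TATTTAA in IGFBP5, TATATA in IGFBP3, GGGCGG in IGF1R and TATAAA in IGFBP4.
IGFBP5 (chr2:216695550-216695799, minus strand): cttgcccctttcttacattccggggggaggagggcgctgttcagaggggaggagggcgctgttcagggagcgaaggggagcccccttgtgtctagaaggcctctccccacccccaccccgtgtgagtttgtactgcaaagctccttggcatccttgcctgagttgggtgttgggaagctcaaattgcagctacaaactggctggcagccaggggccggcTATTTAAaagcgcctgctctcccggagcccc
IGFBP3 (chr7:45921273-45921372, minus strand): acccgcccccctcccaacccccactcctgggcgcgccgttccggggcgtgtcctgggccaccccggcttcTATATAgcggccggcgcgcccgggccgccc
IGF1R (chr15:98648289-98648538, plus strand): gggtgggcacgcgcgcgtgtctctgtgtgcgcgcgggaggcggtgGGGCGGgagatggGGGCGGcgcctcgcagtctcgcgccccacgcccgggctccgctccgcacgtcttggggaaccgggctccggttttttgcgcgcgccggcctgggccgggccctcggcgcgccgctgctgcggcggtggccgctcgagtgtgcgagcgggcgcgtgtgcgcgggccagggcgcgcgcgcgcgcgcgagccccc
IGFBP4 (chr17:40443350-40443449, plus strand): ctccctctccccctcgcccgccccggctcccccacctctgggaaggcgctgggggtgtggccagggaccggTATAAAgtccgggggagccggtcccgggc
In IGFBP5 the capitals begin 31 bases before the start site, in IGFBP3 30 bases and in IGFBP4 29 bases. An AT-rich motif was found in these 3 of the 7 genes with a promoter and not in IGF1R, IGF2R, IGFBP2 and IGFBP6, and GGGCGG was found in 6 of the 7, all but IGFBP5. It was found in IGF1R at 205 and 192 bases before the start and, on the other strand and not in capitals, in IGFBP3 at 98 and 6 bases and in IGFBP4 at 83 bases. Over the 250 bases before the start, on both strands, TATAAA was found in 10.7% of 35116 RefSeq promoters, TATTTAA in 4.17%, TATATA in 3.73%, CCAAT in 32.0% and GGGCGG in 42.6%. TATTTAA and TATATA were chosen after the IGFBP5 and IGFBP3 sequences had been seen, and TATATA reads the same on both strands. A match is a description of the letters in this window.

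IGFBP5 encodes a binding protein that also attaches to extracellular matrix (chromosome 2, chr2:216672105-216695549, minus strand, GRCh38). The IGFBP5 values were 28, 24 and 23 in SNU449 ctrl and 5599, 10422 and 3564 in SNU449 Rego. In SNU449-Axl- ctrl they were 23, 18 and 29, and in SNU449-Axl- Rego 29, 23 and 45. Only the 3 SNU449 Rego libraries were high, and the 9 other libraries were at 45 or below. On the log2 scale the level was 12.53 ± 0.78 (SD, n = 3) in SNU449 Rego, against 4.70 ± 0.14 in SNU449 ctrl, 4.58 ± 0.33 in SNU449-Axl- ctrl and 5.01 ± 0.48 in SNU449-Axl- Rego. The difference of 7.84 between SNU449 Rego and SNU449 ctrl is a description without a test, because the gene was selected on it. The libraries of the 3 other groups overlapped. IGFBP5 is in no pairwise table without SNU449 Rego, so it was listed through the group in which it was high, and no test is given among the 3 other groups.

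Mean normalized counts that the authors deposited for pairs of groups give the size on the count scale. IGFBP5 had a mean of 3197 over the libraries of SNU449 Rego and SNU449 ctrl, 3461 over both Rego groups and 3346 over SNU449 Rego and SNU449-Axl- ctrl. It was not listed in the 3 pairwise tables without SNU449 Rego, so that means of the other 3 groups could not be solved for this gene. Over all 12 libraries its mean was 1740. If all of these counts came from SNU449 Rego, its mean there would be 6962.

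**Figure D1:**
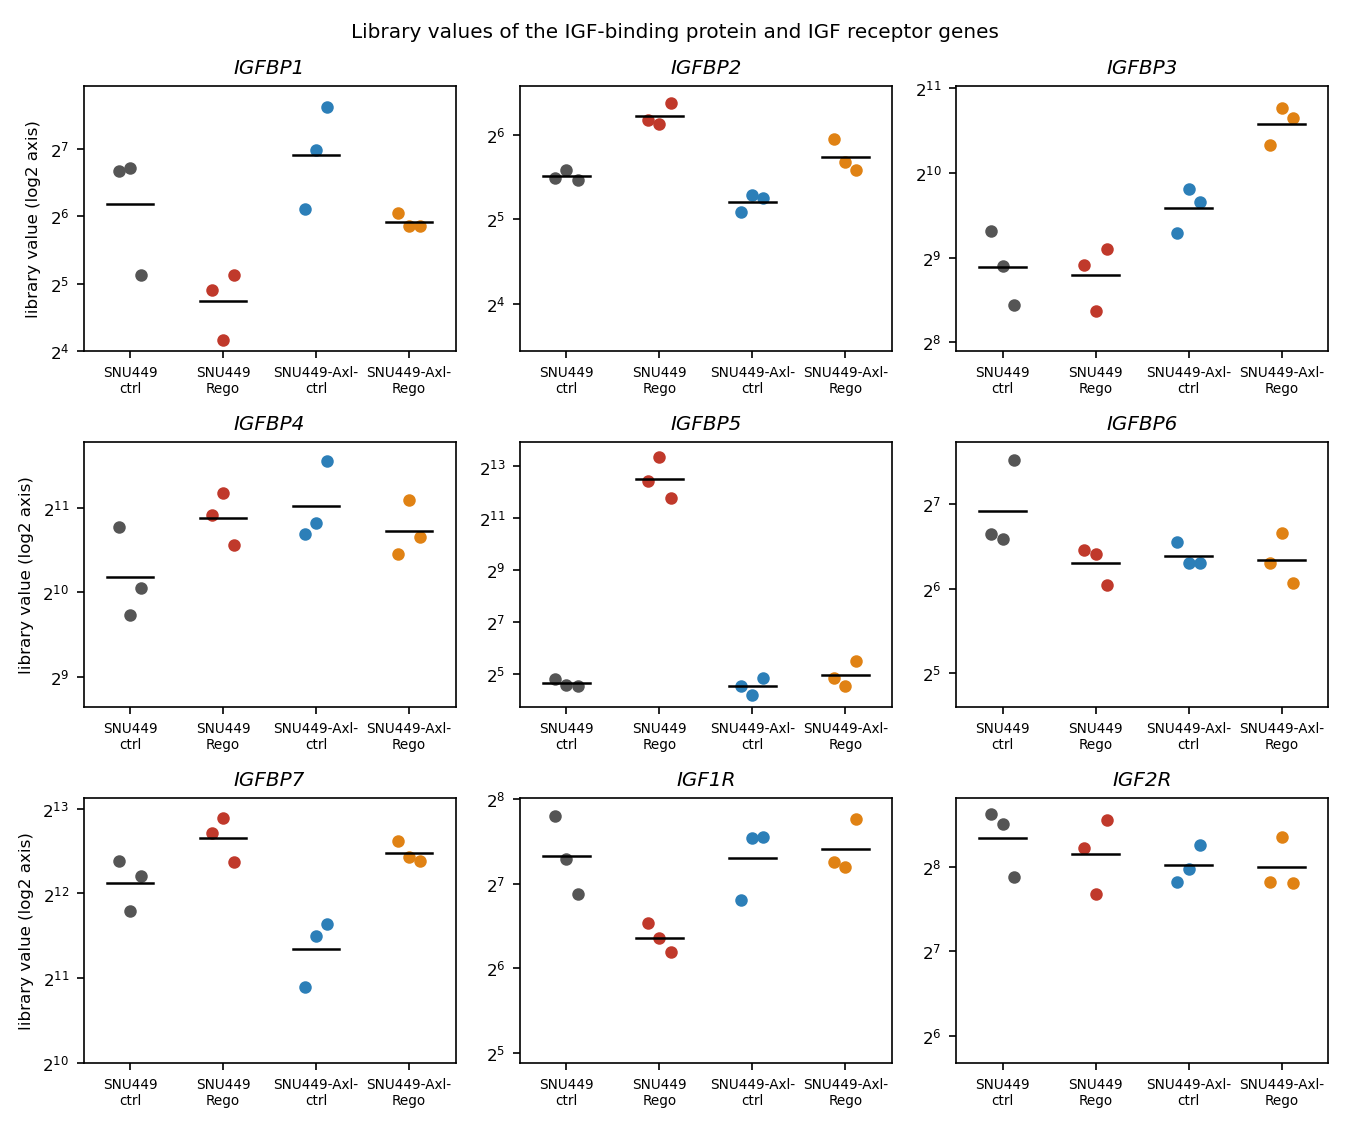
Library values (log2 axis) of the 9 listed genes in the 4 groups. Points are the 3 libraries of a group and bars are back-transformed means of log2(value + 1). IGFBP5 is high in SNU449 Rego, at 3564 to 10422, and at 18 to 45 in all other libraries.

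IGFBP3 encodes the most abundant IGF carrier of the circulation (chromosome 7, chr7:45912245-45921874, minus strand). The IGFBP3 values were 638, 478 and 346 in SNU449 ctrl and 483, 331 and 551 in SNU449 Rego. They were 627, 897 and 810 in SNU449-Axl- ctrl and 1284, 1747 and 1605 in SNU449-Axl- Rego. The SNU449-Axl- Rego libraries were above all others, and the 2 Axl-proficient groups overlapped. Among Rego-resistant cells IGFBP3 was higher without Axl by a log2 fold change of 1.78 (SE 0.25, limma adjusted p = 0.000254), in 3 of 3 libraries. This was called in all 20 alternative fits, with adjusted p from 6.25e-06 to 0.00586. Within SNU449-Axl- cells IGFBP3 rose with resistance by 0.99 (SE 0.25, limma adjusted p = 0.0279). This call was lost when any of 5 libraries was left out, namely SNU449-Axl- ctrl replicate 1, 2 or 3 (adjusted p = 0.123, 0.0618 and 0.0637) or SNU449-Axl- Rego replicate 2 or 3 (0.186 and 0.112), and over all alternatives the adjusted p ran from 0.00598 to 0.186. In SNU449 cells the change of IGFBP3 with resistance was -0.09 (SE 0.25, limma adjusted p = 0.888), and its sign turned to 0.20 without SNU449 ctrl replicate 1 or SNU449 Rego replicate 2. Between control cells IGFBP3 had a log2 fold change of 0.70 (SE 0.25, limma adjusted p = 0.0942), which passed with spike-in centring (0.90, adjusted p = 0.0235) and without SNU449 ctrl replicate 1 (0.99, 0.0353), over a range of 0.0235 to 0.389, the highest without SNU449 ctrl replicate 3 (0.40). The difference between both Rego effects, 1.08 (SE 0.35, limma adjusted p = 0.0788), did not pass the threshold, and it passed without SNU449 ctrl replicate 3 (adjusted p = 0.0165), without SNU449 Rego replicate 3 (0.0474) and without the replicate block (0.0406), over a range of 0.0165 to 0.234.

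Markers of cell types were read beside IGFBP3 and IGFBP5. Of 10 hepatocyte markers 3 were listed (FGB, AFP and APOA1), and ALB, TTR, APOA2, APOB, SERPINA1, HNF4A and TF were not. Their summed values were 92, 67 and 67 in SNU449 ctrl, 85, 72 and 73 in SNU449 Rego, 98, 115 and 133 in SNU449-Axl- ctrl and 249, 606 and 354 in SNU449-Axl- Rego, the group in which IGFBP3 was highest. FGB, a fibrinogen chain, made up most of the last sum, with 189, 547 and 294, and was higher in SNU449-Axl- Rego than in SNU449-Axl- ctrl by a log2 fold change of 2.49 (SE 0.38, limma adjusted p = 0.000805). Of the 3, only FGB was called in that comparison, where 4.35% of all genes were called. AFP had -0.11 (limma adjusted p = 0.803) and APOA1 0.23 (limma adjusted p = 0.561), both with overlapping libraries. The part of FGB in the IGFBP3 values was not tested.

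Of 6 simple epithelium markers, KRT18, KRT8 and KRT7 were listed and EPCAM, CDH1 and KRT19 were not. Their summed values were 863, 1063 and 1339 in SNU449 ctrl, 2222, 1645 and 1802 in SNU449 Rego, 1316, 2203 and 1905 in SNU449-Axl- ctrl and 2770, 1953 and 2132 in SNU449-Axl- Rego. KRT18 had most weight in each sum but that of SNU449 Rego replicate 3, where KRT7 (897) was above KRT18 (765). Of the 3, only KRT7 was called with resistance in SNU449, where 7.81% of all genes were called. KRT18 (0.27, limma adjusted p = 0.607) and KRT8 (-0.10, limma adjusted p = 0.842) had overlapping libraries. KRT7 rose by a log2 fold change of 4.47 (SE 0.43, limma adjusted p = 2.50e-06), from 37, 27 and 18 to 695, 354 and 897, and unlike IGFBP5 it was also high in both SNU449-Axl- groups (181, 820 and 303, then 636, 377 and 617). All 6 mesenchymal markers were listed. Their sums (16098 to 29414) overlapped between the groups, but had most weight from VIM and say little about the other 5. With resistance in SNU449, 1 of these 6 was called, against 7.81% of all genes. It was FN1, at a log2 fold change of -2.24 (SE 0.36, limma adjusted p = 0.000686). The other 5 ranged from -0.71 (SPARC) to 0.38 (ZEB1). In SNU449-Axl- cells 2 of 6 were called in opposite directions, against 4.35% of all genes. These were FN1 at 2.47 (SE 0.36, limma adjusted p = 0.000544) and SNAI2 at -0.83 (SE 0.23, limma adjusted p = 0.0483). The other 4 were CDH2 (-0.66), VIM (-0.40), SPARC (-0.19) and ZEB1 (0.38). The SNAI2 call ran from 0.0169 to 0.266 and was lost in the other 12-library table, with spike-in centring, and without SNU449 ctrl replicate 2, SNU449 Rego replicate 1 or 2, any 1 SNU449-Axl- ctrl library or SNU449-Axl- Rego replicate 1 or 2. None of the 3 endothelium markers was listed, and the 2 listed leukocyte markers had sums of 46 to 68. Between Rego-resistant cells, where IGFBP3 and IGF1R were higher without Axl, 3 of the 14 listed markers of the 4 types were called, against 4.37% of all genes, and these were higher without Axl in all 20 alternatives. They were FGB at a log2 fold change of 3.44 (SE 0.38, limma adjusted p = 2.90e-05, range 7.97e-08 to 0.000588), FN1 at 2.46 (SE 0.36, limma adjusted p = 0.000489, range 5.13e-06 to 0.0106) and KRT8 at 1.58 (SE 0.22, limma adjusted p = 0.000248, range 1.33e-05 to 0.00585). Between control cells 4 of 14 were called, against 7.45%, KRT7 (3.71, adjusted p = 3.10e-05, range 8.84e-07 to 0.00502) and FN1 (-2.25, adjusted p = 0.000867, range 9.22e-05 to 0.0141) in all 20 alternatives. KRT8 (0.79, adjusted p = 0.0332, range 0.00969 to 0.181) was not called in the pairwise table or without SNU449 ctrl replicate 1 or 2 or any 1 SNU449-Axl- ctrl library. AFP (0.67, adjusted p = 0.0297, range 0.00636 to 0.113) was not called in the pairwise table or without any 1 control library. The part of these markers in the values of the IGF genes was not tested.

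IGFBP1 encodes a liver-derived binding protein that insulin represses, and it lies 18585 bases from IGFBP3 (chr7:45888360-45893660, plus strand). The IGFBP1 values were 102, 105 and 35 in SNU449 ctrl, 30, 18 and 35 in SNU449 Rego, 69, 126 and 197 in SNU449-Axl- ctrl and 66, 58 and 58 in SNU449-Axl- Rego. IGFBP1 was low in SNU449 Rego, although 1 of its libraries shared the value of SNU449 ctrl replicate 3. IGFBP1 fell with resistance in SNU449 cells, by a log2 fold change of -1.40 (SE 0.38, limma adjusted p = 0.0297). The call was lost in the pairwise table (adjusted p = 0.0651) and without SNU449 ctrl replicate 1 or 2 (0.161 and 0.205) or SNU449 Rego replicate 1 or 2 (0.0627 and 0.191), over a range of 0.000354 to 0.205. In SNU449-Axl- cells the log2 fold change was -0.97 (SE 0.38, limma adjusted p = 0.168), with no overlap of the libraries, and it passed in the pairwise table (-0.64, adjusted p = 0.0375), without SNU449 ctrl replicate 3 (0.0384) and without SNU449-Axl- ctrl replicate 1 (-1.49, 0.0304), over a range of 0.0304 to 0.572, the highest without SNU449-Axl- ctrl replicate 3 (-0.50). Between Rego-resistant cells IGFBP1 had a log2 fold change of 1.15 (SE 0.38, limma adjusted p = 0.101), which passed in the pairwise table (0.70, adjusted p = 0.00534), with spike-in centring (1.45, 0.0122), without SNU449 ctrl replicate 3 (0.0150) and without SNU449-Axl- ctrl replicate 1 (0.0453), over a range of 0.00534 to 0.388. The difference of 0.43 (SE 0.54, limma adjusted p = 0.735) between both Rego effects was within the error, and its sign turned to -0.091 without SNU449-Axl- ctrl replicate 1.

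IGFBP2 encodes another binding protein of the circulation and lies 7669 bases from IGFBP5 on the opposite strand (chr2:216632828-216664436). The IGFBP2 values were 45, 48 and 44 in SNU449 ctrl, 72, 70 and 83 in SNU449 Rego, 34, 39 and 38 in SNU449-Axl- ctrl and 62, 51 and 48 in SNU449-Axl- Rego. Each Rego group was above its control without overlap, all at low values. The log2 fold change was 0.70 (SE 0.18, limma adjusted p = 0.0242) in SNU449 and 0.52 (SE 0.18, limma adjusted p = 0.124) in SNU449-Axl- cells, and the difference of -0.18 (SE 0.26) had an adjusted p of 0.773. The value in SNU449-Axl- cells passed without the replicate block (adjusted p = 0.0313), over a range of 0.0313 to 0.425. The call in SNU449 was lost in the pairwise table (adjusted p = 0.0806) and when any 1 of the 6 libraries compared was left out, with adjusted p of 0.0734, 0.0579 and 0.0801 without SNU449 ctrl replicate 1, 2 and 3 and of 0.0558, 0.0511 and 0.123 without SNU449 Rego replicate 1, 2 and 3. Over all alternatives it ran from 0.00394 to 0.123.

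IGFBP7 encodes a related secreted protein that binds IGFs weakly (chr4:57030773-57110385, minus strand). The IGFBP7 values were 5326, 3543 and 4736 in SNU449 ctrl, 6699, 7600 and 5301 in SNU449 Rego, 1909, 2890 and 3186 in SNU449-Axl- ctrl and 6298, 5514 and 5365 in SNU449-Axl- Rego. The SNU449-Axl- ctrl libraries were the lowest of the 12. With resistance IGFBP7 rose in SNU449-Axl- cells by a log2 fold change of 1.14 (SE 0.23, limma adjusted p = 0.00701), a call lost without SNU449-Axl- Rego replicate 1 (adjusted p = 0.0604), with a range of 0.00133 to 0.0604. In SNU449 cells the change was 0.53 (SE 0.23, limma adjusted p = 0.175), and the difference between both effects was 0.60 (SE 0.32, limma adjusted p = 0.320). Leaving out 1 library gave 0.31 to 0.72 for the change in SNU449 and 0.31 to 0.83 for the difference. Between control cells IGFBP7 was lower without Axl by a log2 fold change of -0.78 (SE 0.23, limma adjusted p = 0.0418). That call was lost in 10 of 20 alternatives, over a range of 0.0178 to 0.231: in the pairwise table (adjusted p = 0.142), with centring on spike-in RNAs (0.113), without SNU449 ctrl replicate 1 or 3 (0.202 and 0.0963), without SNU449-Axl- ctrl replicate 1 or 2 (0.231 and 0.0865, the first with a log2 fold change of -0.48), without SNU449 Rego replicate 1 (0.0607), and without SNU449-Axl- Rego replicate 1, 2 or 3 (0.0615, 0.0572 and 0.0585).

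IGFBP4 and IGFBP6, binding proteins that mostly restrain IGFs, had no call. IGFBP4 values ranged from 850 to 1742 in SNU449 ctrl, 1501 to 2306 in SNU449 Rego, 1650 to 2991 in SNU449-Axl- ctrl and 1394 to 2170 in SNU449-Axl- Rego, and the groups overlapped. The IGFBP4 difference between the control groups was 0.83 (SE 0.28, limma adjusted p = 0.0784). It was called without the replicate block (adjusted p = 0.0492), with centring on spike-in RNAs (0.0111), without SNU449 ctrl replicate 1 (0.0145) and without SNU449-Axl- ctrl replicate 1 (0.0489). The adjusted p ran from 0.0111 to 0.373, and leaving out 1 library gave values of 0.48 to 1.22. With resistance in SNU449, IGFBP4 had a log2 fold change of 0.69 (SE 0.28, limma adjusted p = 0.151). It passed without SNU449 ctrl replicate 1 (adjusted p = 0.0244), over a range of 0.0244 to 0.553. Leaving out 1 library gave values of 0.39 to 1.08. The difference of its Rego effect, -0.98 (SE 0.39, limma adjusted p = 0.163), passed without SNU449 ctrl replicate 1 (-1.37, adjusted p = 0.0372). The adjusted p ran from 0.0372 to 0.397, and leaving out 1 library gave values of -1.37 to -0.63. IGFBP6 values ranged from 96 to 184 in SNU449 ctrl, 66 to 88 in SNU449 Rego, 79 to 94 in SNU449-Axl- ctrl and 67 to 101 in SNU449-Axl- Rego, with log2 fold changes of -0.61 (SE 0.25, limma adjusted p = 0.157) with resistance in SNU449 and -0.53 (SE 0.25, limma adjusted p = 0.227) between control cells, both without overlap. Without SNU449 ctrl replicate 3, the library at 184, these 2 values were -0.20 and -0.12.

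Of the receptors, IGF1R (chr15:98648539-98964530, plus strand) had values of 222, 157 and 118 in SNU449 ctrl, 93, 82 and 73 in SNU449 Rego, 112, 186 and 188 in SNU449-Axl- ctrl and 153, 147 and 218 in SNU449-Axl- Rego. The SNU449 Rego libraries were below all 9 others. IGF1R fell with resistance in SNU449 by a log2 fold change of -0.95 (SE 0.26, limma adjusted p = 0.0284), a call lost without SNU449 ctrl replicate 1 or 2 (adjusted p = 0.183 and 0.0880) or SNU449 Rego replicate 2 or 3 (0.0919 and 0.131), over a range of 0.00780 to 0.183. Among Rego-resistant cells IGF1R was higher without Axl by 1.04 (SE 0.26, limma adjusted p = 0.0273), a call lost when any 1 of the 6 libraries compared was left out (adjusted p = 0.0564, 0.0951 and 0.119 without SNU449 Rego replicate 1, 2 and 3, and 0.0773, 0.0709 and 0.176 without SNU449-Axl- Rego replicate 1, 2 and 3), over a range of 0.00218 to 0.176. In SNU449-Axl- cells the change with resistance was 0.11 (SE 0.26, limma adjusted p = 0.873), with a sign that turned to -0.22 without SNU449-Axl- ctrl replicate 1 and -0.13 without SNU449-Axl- Rego replicate 3. The difference between both Rego effects was 1.06 (SE 0.37, limma adjusted p = 0.0995) and passed only without SNU449 ctrl replicate 3 (adjusted p = 0.0291), over a range of 0.0291 to 0.275. IGF2R (chr6:159969082-160113507, plus strand) ranged from 236 to 396 in SNU449 ctrl, 205 to 375 in SNU449 Rego, 227 to 306 in SNU449-Axl- ctrl and 225 to 327 in SNU449-Axl- Rego. All IGF2R groups overlapped, and its group means spanned 0.34 on the log2 scale.

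**Figure D2:**
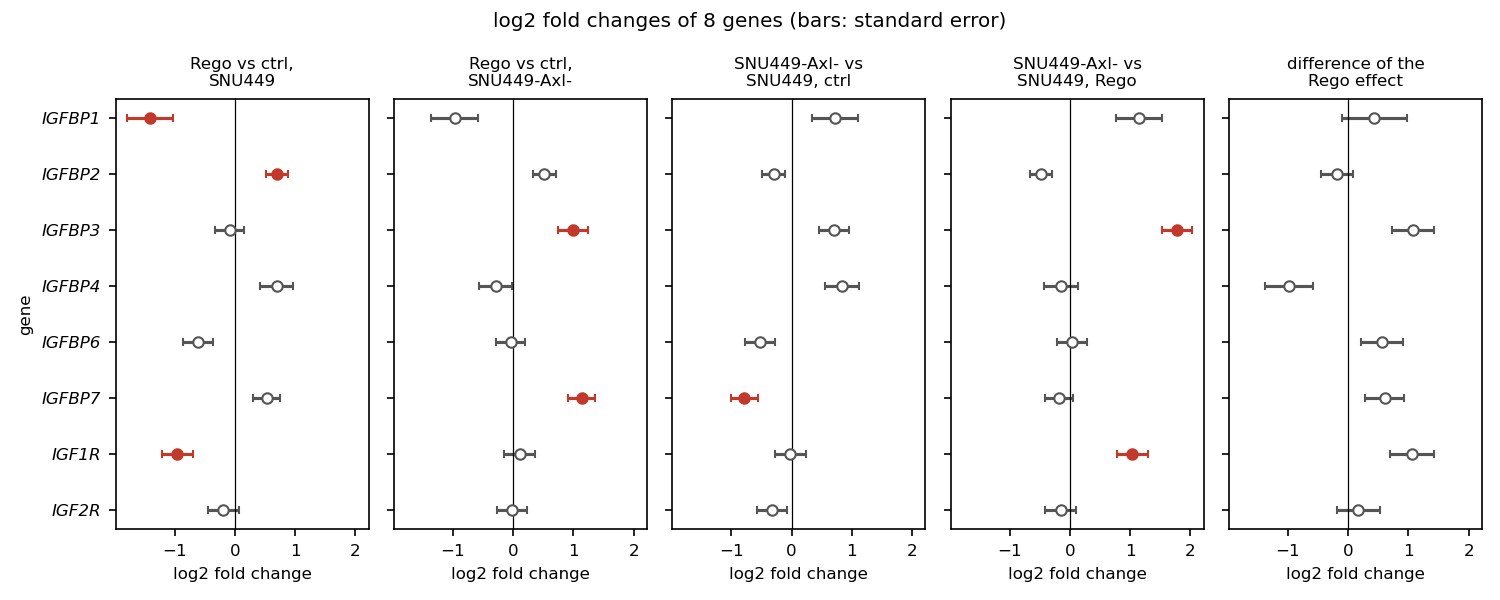
log2 fold changes of 8 genes in the 5 comparisons. Points are limma estimates, bars their standard errors, and filled red points passed an adjusted p under 0.05. IGFBP5 is left out because of its size. IGFBP3 has the largest called value among the 8, 1.78 between the Rego-resistant groups.

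Counted over the 8 listed genes other than IGFBP5, 3 of 8 were called with resistance in SNU449 (1 higher, 2 lower), where 7.81% of all genes were called (4.31% higher and 3.5% lower). In SNU449-Axl- cells 2 of 8 were called, both higher, against 4.35% of all genes (2.54% higher and 1.81% lower). Between control cells 1 of 8 was called, lower, against 7.45% (4.03% higher and 3.43% lower). Between Rego-resistant cells 2 of 8 were called, both higher, against 4.37% (2.44% higher and 1.93% lower). For the difference of the Rego effect, none of the 8 passed in limma, against 5.87% of all genes (2.92% higher and 2.95% lower), and 3 of 8 had an unadjusted p under 0.05, against 19.4% of all genes. Over the alternatives these counts ran from 0 to 3, 1 to 3, 0 to 2, 1 to 3 and 0 to 2 of 8 in this order. With resistance in SNU449 the count was 0 without SNU449 ctrl replicate 2 or SNU449 Rego replicate 2, 1 in the pairwise table and without SNU449 ctrl replicate 1 or SNU449 Rego replicate 1 or 3, and 2 without SNU449 ctrl replicate 3. In SNU449-Axl- cells it was 1 without SNU449-Axl- ctrl replicate 2 or 3 or any 1 SNU449-Axl- Rego library, and 3 without the block, in the pairwise table and without SNU449 ctrl replicate 3. Between control cells it was 0 in the pairwise table and without SNU449 ctrl replicate 3, SNU449 Rego replicate 1, SNU449-Axl- ctrl replicate 2 or any 1 SNU449-Axl- Rego library, and 2 without the block, with spike-in centring and without SNU449 ctrl replicate 1. Between Rego-resistant cells it was 1 without any 1 library of either Rego group, and 3 without the block, in the pairwise table, with spike-in centring and without SNU449 ctrl replicate 3 or SNU449-Axl- ctrl replicate 1. For the difference it was 1 without the block, SNU449 ctrl replicate 1 or SNU449 Rego replicate 3, and 2 without SNU449 ctrl replicate 3. IGFBP5 is left out of these counts because it was selected on its values in SNU449 Rego and was listed through that group. With so few genes, 1 call more or less changes each share, and the comparisons share groups. The median log2 fold change of the 8 genes other than IGFBP5 was -0.14, 0.04, -0.16, -0.06 and 0.50 in the 5 comparisons in this order, against 0.00 to 0.01 for all genes.

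Group means of normalized counts, solved from the authors' means of the 6 pairwise tables, could be given for the 8 other genes without a test. For IGFBP3 they were 452 in SNU449 ctrl, 364 in SNU449 Rego, 864 in SNU449-Axl- ctrl and 1721 in SNU449-Axl- Rego. For IGF1R they were 141, 41.0, 158 and 174 in the same order, and for IGFBP2 16.1, 45.0, 10.4 and 28.4. The low-count genes IGF1R and IGFBP2 spread wider in these solved means than in the stabilized values. How far the error of the solution adds to this was not tested. IGFBP1 solved to 75.8, 113 and 46.3 in SNU449 ctrl, SNU449-Axl- ctrl and SNU449-Axl- Rego, and to a value below 0 in SNU449 Rego. This shows the limit of this solution for low counts. For IGFBP6 the solved means were 45.8 in SNU449 Rego and 69.3 in SNU449-Axl- Rego, at levels of 6.32 and 6.36. For IGFBP4 and IGFBP7, SNU449 Rego was below SNU449-Axl- Rego in the solved means and above it in the levels. IGFBP2 and IGFBP3 kept the order of their levels. Whether the solved means of SNU449 Rego, such as 41.0 for IGF1R, are too low was not tested. The equations were met with a median error of 0.365% over 12901 genes, which does not measure the error for a single low-count gene.

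Position was not used to choose the genes. Of 13 tested genes within 1 Mb of IGFBP5, 2 were called with resistance in SNU449, where 7.81% of all genes were. These were IGFBP2 and the long noncoding RNA gene DIRC3, which is named after its values were seen. DIRC3 values were 20, 19 and 25 in SNU449 ctrl, 72, 95 and 39 in SNU449 Rego, 20, 19 and 25 in SNU449-Axl- ctrl and 24, 19 and 29 in SNU449-Axl- Rego. DIRC3 was highest in the 3 libraries of SNU449 Rego, the group in which IGFBP5 was high, at 1.56 above SNU449 ctrl on the log2 scale, a description, since it was singled out for this pattern. The other 11 neighbours had no call, and the median of the 13 was 0.01. In the next 4 comparisons 0, 0, 1 and 1 of the 13 were called, DIRC3 both times. The shares of all genes called there were 4.35%, 7.45%, 4.37% and 5.87%. Both comparisons in which DIRC3 was called here hold SNU449 Rego. In the other groups DIRC3 was low, at 19 to 29, with the same 3 values in both control groups. These DIRC3 calls thus follow from the pattern it was named for and are a description. They were lost in 1 of 19 alternatives between Rego-resistant cells and in 8 of 18 for the difference of the Rego effect.

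**Figure D3:**
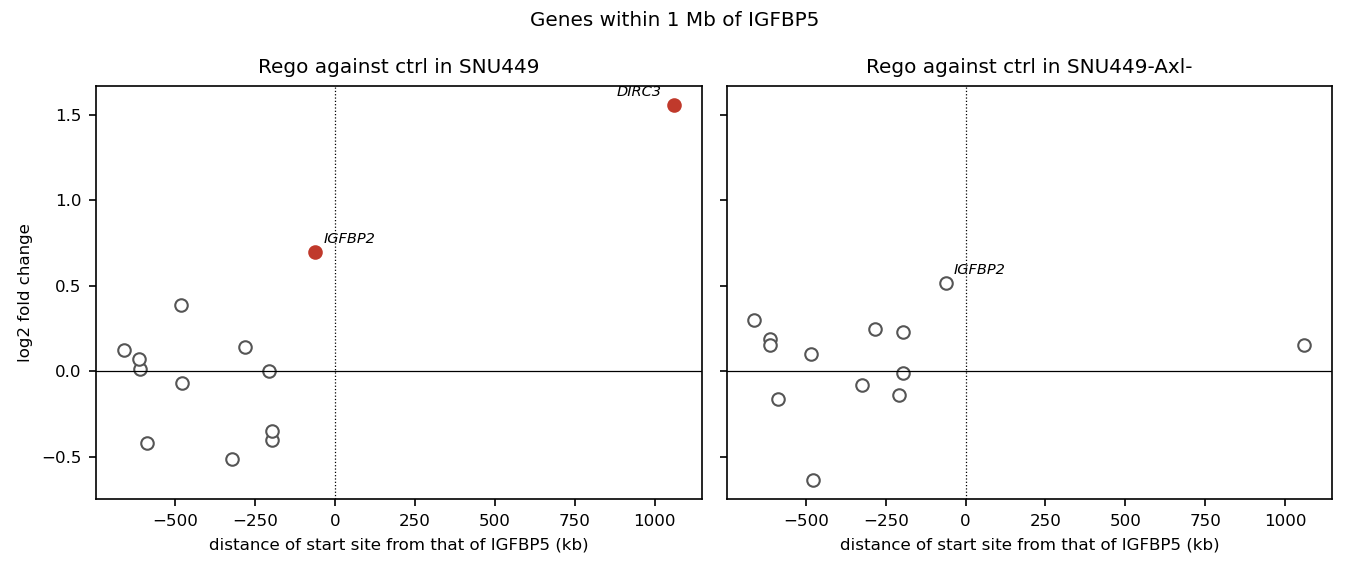
log2 fold change with resistance of the 13 genes that reach within 1 Mb of IGFBP5, against the distance of their start sites from that of IGFBP5 (kb). Filled red points passed an adjusted p under 0.05. DIRC3, at 1.56 in SNU449, stands apart from the genes on the other side.

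Of 37 tested genes within 1 Mb of IGFBP6, which itself had no call, 5 were called higher with resistance in SNU449, where 4.31% of all genes were. These were KRT81 (log2 fold change 4.76, limma adjusted p = 1.25e-07, range 1.65e-09 to 0.000202), KRT7, KRT80 (2.38, adjusted p = 0.000819, range 0.000146 to 0.00883) and HOXC10 (0.82, adjusted p = 0.00630, range 0.000626 to 0.0469) in all 20 alternatives, and KRT86 (0.78, adjusted p = 0.0318, range 0.0126 to 0.156), not called in the pairwise table or without SNU449 ctrl replicate 1 or 2 or SNU449 Rego replicate 2 or 3. Between control cells 6 of 37 were called higher, where 4.03% of all genes were. KRT81 (4.75), KRT7, KRT86 (1.26), HOXC13 (0.93) and HOXC10 (0.78) were called in all alternatives run, and KRT8 as given above. For the difference of the Rego effect 6 of 37 were called lower, where 2.95% of all genes were. KRT81 (-4.57), KRT7, KRT86 (-1.41) and HOXC8 (-1.23) were called in all alternatives run, while HOXC9 (-1.10) was lost in 9 of 19 and HOXC10 (-0.87) in 14 of 19. In SNU449-Axl- cells 1 of 37 was called, HOXC8, lower (-1.14), where 4.35% of all genes were called. Between Rego-resistant cells 2 of 37 were called, against 4.37%: HOXC8 lower (-0.86, lost in 6 of 20 alternatives) and KRT8 higher. The medians of the 37 lay between -0.13 and 0.16.

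Of 37 tested genes around IGFBP4, 2 were called with resistance in SNU449 (IKZF3 higher, KRT222 lower), where 7.81% of all genes were. In SNU449-Axl- cells 2 were called (IKZF3 higher, KRTAP2-3 lower), against 4.35%, and between control cells 1 (CSF3, higher), against 7.45%. None was called in the last 2 comparisons in limma, in which 4.37% and 5.87% of all genes were called. Of 10 around IGF2R, SLC22A3 alone was called with resistance in both backgrounds (higher), against 7.81% and 4.35% of all genes. Between control cells MAP3K4 alone was called (lower), against 7.45%. Of these 8 calls, those of IKZF3 and SLC22A3 in SNU449-Axl- cells held in all 20 alternatives, and the other 6 were lost in 1 to 7 alternatives. Of 6 tested genes around IGFBP1, IGFBP3 alone was called. It was higher with resistance in SNU449-Axl- cells and between Rego-resistant cells, where 4.35% and 4.37% of all genes were called. Around IGFBP2, IGFBP5 is not counted, because it was selected on its values in SNU449 Rego. DIRC3 was the only other gene called there, as described above.

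Of 13 tested genes within 1 Mb of IGFBP7, 4 were lower in SNU449-Axl- ctrl than in SNU449 ctrl, as IGFBP7 was, where 3.43% of all genes were called lower. These were, in limma, NOA1 (log2 fold change -0.83), PAICS (-0.79), AASDH (-0.89) and SRP72 (-0.58), and the median of the 13 was -0.38, against 0.00 for all genes. In the other comparisons AASDH alone of the 13 was called, with resistance in SNU449-Axl- cells and for the difference. These calls were lost in 9 of 20 and 9 of 19 alternatives, and 4.35% and 5.87% of all genes were called there. NOA1 values were 286, 209 and 275 in SNU449 ctrl and 153, 140 and 136 in SNU449-Axl- ctrl, without overlap. Centring on spike-in RNAs ended all 4 calls (adjusted p = 0.0639, 0.0956, 0.0620 and 0.254 in this order), and the pairwise table those of AASDH (0.0794) and SRP72 (0.0934). They also ended without SNU449 ctrl replicate 1 or 3 or SNU449-Axl- ctrl replicate 2 or 3 for NOA1 (up to 0.0794), without SNU449 ctrl replicate 2 or 3 or SNU449-Axl- ctrl replicate 1 or 2 for PAICS (up to 0.0833), without replicate 1 or 3 of either control group for AASDH (up to 0.103), and after leaving out any 1 library but SNU449 Rego replicate 3 for SRP72 (up to 0.214). The 6 genes around IGFBP3 included IGFBP1 as the 1 called with resistance in SNU449, and none of the 8 around IGF1R was called in any of the 5 comparisons. Over all genes, 4.35% to 7.81% were called in these comparisons, so that few or no calls among so few genes say little.

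Over the 12 libraries, and among 1206 genes whose group means ranged over at least 1 on the log2 scale, those of PAGE1 (r = 0.98), RIPOR3 (0.98), TSTD1 (0.98) and IL13RA2 (0.96) were among the patterns most like IGFBP5. The most opposite were RIMKLB (-0.99), SGK2 (-0.96), CYYR1 (-0.95), PPP2R2C (-0.94) and TNIK (-0.93). IGFBP1 had the next widest range of group means, 2.13, and was most like TGFBI (0.95), DLC1 (0.89), OSGIN2 (0.88), FABP5 (0.87) and RASSF8 (0.86) and most opposite to CCL2 (-0.92), THBD (-0.88), NUDT3 (-0.86), EMP3 (-0.86) and DLK2 (-0.84). The 12 libraries fall into 4 groups, so these Pearson values mostly describe 4 means.

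The list of 42 other IGF pathway genes was drawn up with earlier results of these libraries known. Of these genes, 31 were listed. With resistance in SNU449 10 of 31 were called, 8 higher and 2 lower, against 7.81% of all genes, with a median of 0.14 over the list and a count of 8 to 12 over the alternatives. MMP7, a metalloprotease that cuts IGF-binding proteins, had values of 57, 45 and 30 in SNU449 ctrl, 500, 447 and 680 in SNU449 Rego, 45, 44 and 67 in SNU449-Axl- ctrl and 2474, 3652 and 2346 in SNU449-Axl- Rego. Both Rego groups were above their controls without overlap. Its log2 fold change was 3.62 (SE 0.26, limma adjusted p = 7.09e-08) in SNU449 and 5.73 (SE 0.26, limma adjusted p = 2.36e-10) in SNU449-Axl- cells, and the difference of 2.12 (SE 0.37) was called (adjusted p = 0.00200). PAPPA, the protease that cleaves IGFBP4, had values of 88, 66 and 37 in SNU449 ctrl and 331, 432 and 246 in SNU449 Rego, a rise of 2.43 (SE 0.40, limma adjusted p = 0.000802). Its values were 160, 170 and 633 in SNU449-Axl- ctrl and 557, 540 and 458 in SNU449-Axl- Rego, with overlap and no call. STC1, which encodes a stanniocalcin, a family that inhibits PAPPA, fell, with log2 fold changes of -1.65 in SNU449 (limma adjusted p = 0.00140) and -2.61 in SNU449-Axl- cells (4.11e-05). ADAM12 fell in SNU449 (-1.54, adjusted p = 0.0130, over a range of 3.63e-05 to 0.128), a call lost in the pairwise table (0.0844) and without SNU449 ctrl replicate 1 or 2 (0.0771 and 0.128) or SNU449 Rego replicate 2 (0.121). HTRA1 and STC2 were not called.

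Of the related binding proteins, CCN2 (1.84, adjusted p = 0.00113), CCN1 (0.97, 0.00329) and KAZALD1 (0.93, 0.00443) were higher with resistance in SNU449 in all 20 alternatives, CCN2 at 1.21 without SNU449 ctrl replicate 3. IGFBPL1 (0.85) made 4 of 5 listed, where 7.81% of all genes were called. The limma adjusted p of IGFBPL1 was 0.0444 and ran from 0.00958 to 0.281. Its call was lost in the pairwise table and with spike-in centring, and without replicate 2 or 3 of SNU449 ctrl, SNU449 Rego or SNU449-Axl- ctrl, or replicate 1 or 3 of SNU449-Axl- Rego, with a value of 0.55 without SNU449 Rego replicate 3. In SNU449-Axl- cells 2 of the 5 were called, against 4.35% of all genes. These were CCN5 (1.43, limma adjusted p = 0.00554, range 0.00100 to 0.0749) and IGFBPL1 (1.06, 0.0216, range 0.00469 to 0.138). The CCN5 call was lost without replicate 2 of SNU449-Axl- ctrl or SNU449-Axl- Rego. That of IGFBPL1 was lost without any 1 SNU449-Axl- ctrl library or SNU449-Axl- Rego replicate 1 or 3. In the pairwise table, where both calls held, the values were 0.93 and 0.69. The difference of the Rego effect was called for CCN2 in all 19 alternatives (-2.24, adjusted p = 0.00562).

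The adaptor genes IRS2 and GRB10 rose with resistance in SNU449, IRS2 by a log2 fold change of 1.07 (SE 0.19, limma adjusted p = 0.00174) and GRB10 by 1.56 (SE 0.28, limma adjusted p = 0.00170), in all 20 alternatives. In SNU449-Axl- cells they rose by 0.94 (adjusted p = 0.00869, range 0.00210 to 0.0728) and 1.17 (0.0242, range 0.00288 to 0.157). The IRS2 call there was lost without SNU449-Axl- ctrl replicate 3 or SNU449-Axl- Rego replicate 2 or 3. That of GRB10 was lost without SNU449-Axl- ctrl replicate 1 or 3 or any SNU449-Axl- Rego library, and its value was 0.76 in the pairwise table. The other 11 of 13 adaptors and signal carriers, IRS1 and AKT1 among them, were not called with resistance in either background, and neither was the insulin receptor gene INSR. Over all genes, 7.81% were called with resistance in SNU449 and 4.35% in SNU449-Axl- cells.

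In SNU449-Axl- cells 7 of the 31 pathway genes were called with resistance, 6 higher and 1 lower, against 4.35% of all genes, with a median of 0.01 and a count of 4 to 8 over the alternatives. CTSD, which encodes a lysosomal protease, was among the higher, at a log2 fold change of 1.49 (SE 0.27, limma adjusted p = 0.00314), in all 20 alternatives. Between control cells 5 of 31 were called, 4 higher and 1 lower, against 7.45% of all genes, with a median of 0.22 and a count that ran from 1 to 11 over the alternatives. PAPPA was the largest of these, at 2.09 (SE 0.40, limma adjusted p = 0.00339, and 0.0552 in the pairwise table, range 0.000193 to 0.0552), and was 1.23 without SNU449-Axl- ctrl replicate 3. The other 4, CCN2, IRS2, IGF2BP2 and CTSD, had adjusted p from 0.0377 to 0.0490. Each was lost in 9 to 12 of 20 alternatives. CCN2 (1.06, range 0.0163 to 0.277) was not called in the pairwise table, with a minimum mean of 40, without any 1 SNU449-Axl- ctrl library, without replicate 1 or 2 of either Rego group, or without SNU449 ctrl replicate 3, where it was 0.44. IRS2 (0.69, range 0.0103 to 0.171) was not called in the pairwise table, without any 1 SNU449 ctrl library, SNU449-Axl- ctrl replicate 1 or 2, SNU449 Rego replicate 1, or SNU449-Axl- Rego replicate 1 or 3. IGF2BP2 (0.60, range 0.00940 to 0.149) was not called in the pairwise table, with upper-quartile rescaling, or without any 1 control library, SNU449 Rego replicate 1 or 2, or SNU449-Axl- Rego replicate 1 or 3. CTSD (-0.94, range 0.000887 to 0.253) was not called with spike-in centring, without any 1 SNU449-Axl- ctrl library, SNU449 ctrl replicate 2, SNU449 Rego replicate 2, SNU449-Axl- Rego replicate 1 or 2, or SNU449 ctrl replicate 1, where it was -0.59.

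Between Rego-resistant cells 4 of 31 were called, 3 higher and 1 lower, against 4.37% of all genes, with a median of -0.02 and a count of 1 to 6 over the alternatives. MMP7 was higher without Axl by a log2 fold change of 2.37 (SE 0.26, limma adjusted p = 2.53e-05), in all 20 alternatives. CCN5 (1.25, adjusted p = 0.0133, range 0.000779 to 0.127) was not called without SNU449 Rego replicate 1 or 3 or SNU449-Axl- Rego replicate 2 or 3 and was 0.80 in the pairwise table, and GRB14 (1.18, adjusted p = 0.0147, range 0.000415 to 0.143) not without any 1 SNU449 Rego library or SNU449-Axl- Rego replicate 1 or 2. CCN2 (-1.17, adjusted p = 0.0415, range 0.000529 to 0.250) was not called with a minimum mean of 40, with spike-in centring, without any 1 SNU449 Rego library, replicate 2 or 3 of SNU449-Axl- ctrl, or replicate 1 or 2 of SNU449-Axl- Rego. For the difference of the Rego effect, 4 of 31 were called, 3 higher and 1 lower, against 5.87% of all genes, with a median of -0.13 and a count of 2 to 7 over the alternatives. Beside MMP7 and CCN2 these were CCN5 (1.46, adjusted p = 0.0320, range 0.00970 to 0.132) and CTSD (1.33, adjusted p = 0.0448, range 0.00135 to 0.151). The CCN5 call was lost without SNU449 ctrl replicate 1 or 2, SNU449 Rego replicate 1 or 3, SNU449-Axl- ctrl replicate 2 or SNU449-Axl- Rego replicate 2 or 3. That of CTSD was lost without replicate 1 or 2 of SNU449 ctrl or SNU449 Rego and without any 1 SNU449-Axl- library.

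**Figure D4:**
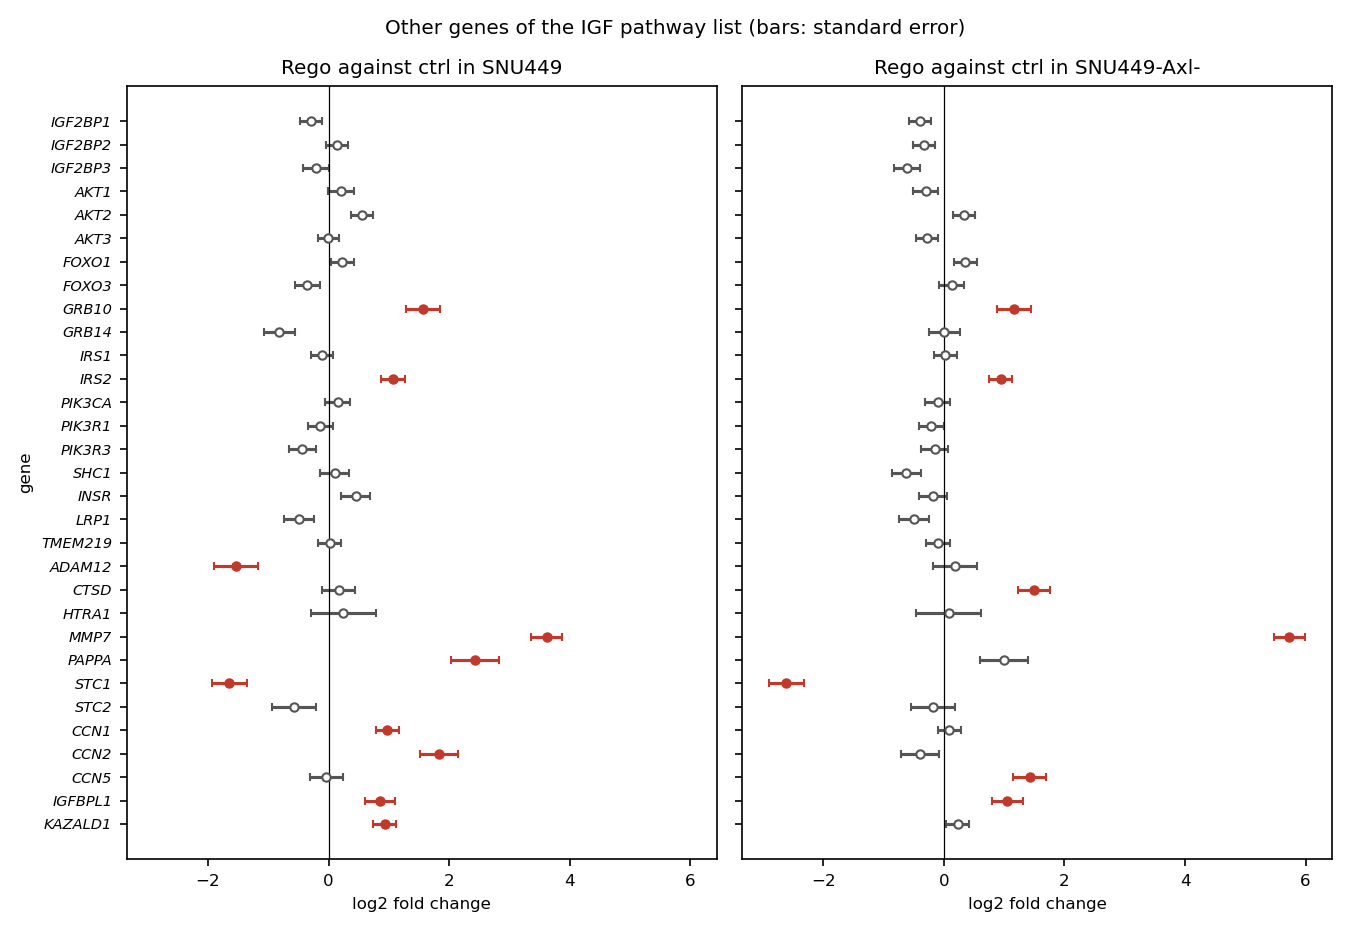
log2 fold changes with resistance of the 31 listed pathway genes in both backgrounds. Points are limma estimates, bars standard errors, and filled red points passed an adjusted p under 0.05. MMP7 is highest in both panels, at 3.62 and 5.73, and STC1 lowest, at -1.65 and -2.61.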

How the data were processed

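QuantSeq reads were made into gene tables by the authors, with cutadapt 4.0 and STAR 2.5.3a on GRCh38 per the submitters' processing notes and DESeq2. The library columns that the authors deposited are whole numbers with the unit score. The study's methods describe a variance-stabilizing transformation with the preparation date removed; that these columns hold 2 raised to that level, rounded, is a reading made here from the values. The deposited mean column is a signal, the authors' mean normalized count. Columns with the authors' fold changes and p-values were not used.

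Log2(value + 1) was tested in R 4.3.3 with limma 3.58.1 (lmFit, eBayes with trend) over 15601 genes (a minimum mean of 5 removed none), without 32 spike-in RNAs, with Benjamini-Hochberg adjustment and adjusted p under 0.05. The replicate number was a block, since the study's design had the preparation date as a term. The date of a library is in no label, and its link to the replicate number is inferred from the values. Same-numbered libraries had correlations of their deviations between -0.48 and -0.09. Python 3.11.15, pandas 2.3.3, numpy 2.4.6, matplotlib 3.10.9 and the R package data.table (version 1.17.8) were used. Library depth is unknown.

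Genes and lists were chosen with earlier results of these data known: the 10 named genes, AXL, the called genes of a pathway list of 42, cell type markers, and for the 2 genes with the widest range of group means up to 5 of the most like and 5 of the most opposite genes. The called neighbours were named after their values were seen. Alternatives were no replicate block, pairwise tables, the other 12-library table, no pseudocount, minimum means of 20 and, chosen after seeing the data, 40, 2 other scalings and leaving out each library.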

Additional observations from a re-analysis of the deposited data

Results flagged for a closer look

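The Rego effect on IGFBP5 differed between the backgrounds. On the log2 scale it was 7.84 in SNU449 and 0.43 in SNU449-Axl- cells, a difference of -7.41 (SE 0.45). IGFBP5 was selected on its values in SNU449 Rego, so this is a description and no test is given. It was at 18 to 45 in the 9 libraries of the other groups. Each background was 1 population of resistant cells, and the part of Axl cannot be told apart from differences between those populations.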

How the results depend on the processing

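Of 45 fold changes of the 9 listed genes, 31 kept their direction in all alternatives and 14 reversed in at least 1 of them; none of the 14 was called, and no reversed value was called. Over 889 alternative values, 38 lost a call and 21 gained one. These counts include IGFBP5, which was selected on its values in SNU449 Rego. Its direction in comparisons that hold this group was fixed by that choice and is no sign of stability. Centring on spike-in RNAs moved the median of all genes to 0.05, 0.14, 0.21, 0.31 and 0.10 (Rego in SNU449, Rego in SNU449-Axl-, knockout in control cells, knockout in Rego-resistant cells, and the difference of the Rego effect), and the share of higher genes among those called to 61.7%, 84.2%, 84.5%, 96.2% and 63.4%, from 55.2%, 58.4%, 54.0%, 55.9% and 49.7%. It reversed IGFBP6 (0.094) and IGF2R (0.12) for Rego in SNU449-Axl-, IGFBP5 (0.087) and IGF1R (0.18) for control cells, and IGFBP4 (0.14), IGFBP7 (0.11) and IGF2R (0.14) for Rego-resistant cells.

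Leaving out 1 library at a time gave ranges that crossed 0: for Rego in SNU449, IGFBP3 -0.39 to 0.20 and IGF2R -0.49 to 0.13; for Rego in SNU449-Axl-, IGFBP4 -0.53 to 0.062, IGFBP6 -0.25 to 0.14, IGF1R -0.22 to 0.28 and IGF2R -0.26 to 0.14; for control cells, IGFBP5 -0.33 to 0.11 and IGF1R -0.32 to 0.30; for Rego-resistant cells, IGFBP4 -0.39 to 0.047, IGFBP6 -0.17 to 0.22 and IGF2R -0.47 to 0.11; for the difference, IGFBP1 -0.091 to 1.12 and IGF2R -0.15 to 0.47.

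Without the replicate block, 2175, 1552, 2182, 1503 and 1826 genes were called in the 5 comparisons, in place of 1219, 678, 1163, 682 and 916, and of the 8 listed IGF genes other than IGFBP5, which was selected on its values, 2 in control cells and 1 for the difference, in place of 1 and 0. It also called IGFBP2 for Rego in SNU449-Axl- and between Rego-resistant cells. The pairwise tables, with the replicate block, gave 603 genes for Rego in SNU449, 603 for control cells and 1160 for Rego-resistant cells, with 1 of these 8 in place of 3 for Rego in SNU449, 0 in place of 1 for control cells and 3 in place of 2 for Rego-resistant cells. Spike-in centring called 1799 genes for Rego-resistant cells and 2 of the 8 for control cells. Leaving out 1 library gave 740 to 1299, 205 to 891, 540 to 1275, 219 to 826 and 523 to 922 genes, and 0 to 3, 1 to 3, 0 to 2, 1 to 3 and 0 to 2 of the 8. Called pathway genes ran over 8 to 12, 4 to 8, 1 to 11, 1 to 6 and 2 to 7. Of 79 other called fold changes, those of pathway genes, AXL, markers and the neighbours named, 41 were called in every alternative, 38 were lost in at least 1, and 0 reversed.

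A minimum mean of 20 removed no gene; a minimum of 40, chosen after seeing the data, left 11247 genes. Adding the 12-library table kept all 31 solved means within 1 SD of the libraries. Beyond fewer libraries when 1 is left out, the cause of these changes was not tested.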
